A study of Homo sapiens with 24 samples.

Results

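Replication-dependent histones are the core and linker histones that dividing cells make in bulk to package new DNA, and their genes stand in clusters on chromosomes 6 and 1. They were picked here by symbol alone: H1-1 to H1-6, and every gene whose current symbol starts with H2AC, H2BC, H3C or H4C followed by a number, provided that a probe detected it (detection p under 0.05) on at least 2 of 24 arrays. RefSeq holds 84 genes with such symbols, of which 14 are pseudogenes or otherwise non-coding. Probes were present for 69 of them, and 55 met the rule, out of 14807 genes tested in all. By class, 4 of 6 genes with a probe were kept for the linker histone H1, 13 of 17 for H2A, 14 of 18 for H2B, 12 of 13 for H3 and 12 of 15 for H4. Of the 55, 41 lie in the chromosome 6 cluster, 11 in the q21 cluster and 2 in the q42 cluster of chromosome 1, and H4C16 lies on chromosome 12.

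The genes closest to the rule were dim on both sides of it. H2AC15 was detected on 2 arrays, with a highest raw intensity of 140.9, and H4C6 on 4 arrays. Just outside it, H1-4, H2BC3, H3C11 and H4C1 were each detected on 1 array, with highest raw intensities of 136.9, 147.8, 149.0 and 133.7, each read from a probe of its own. The other 10 genes left out (H1-6, H2AC1, H2AC12, H2AC14, H2AC16, H2BC1, H2BC10, H2BC13, H4C7 and H4C13) were detected on 0 arrays. At the other end, 14 of the 55 were detected on all 24 arrays.

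Arrays were made from HCC38, from BT549 and from the lines MDA-MB-157 and MDA-MB-231, 4 established cell lines of triple-negative breast cancer, that is, of tumours without hormone receptors or amplified HER2. All received 2 µM cisplatin, a platinum drug that crosslinks DNA, and were collected at 0, 24 and 72 h, with 2 replicates in each of the 12 groups that the design text calls independent. A difference between lines belongs to these 4 cultures. Untreated cultures of the same age were not analysed here, so drug and time in culture cannot be told apart. The estrogen receptor gene ESR1 and the blood cell genes PTPRC and CD3E did not pass the detection filter, and the progesterone receptor gene PGR was detected on 2 arrays. Of 10 listed marker genes that passed it, 4 were called higher and 3 lower in HCC38 than in the other lines at 0 h. The epithelial genes EPCAM, KRT8 and KRT18 were 5.60 (SE 0.36, adjusted p 2.32e-10), 2.34 (adjusted p 4.81e-07) and 1.19 (adjusted p 0.000168) log2 units higher, and ERBB2, the gene of HER2, was 1.46 higher (adjusted p 2.76e-07). The mesenchymal gene VIM was lower (-1.99, adjusted p 1.08e-08), as were the fibroblast genes COL1A1 (-2.65, adjusted p 9.9e-07) and THY1 (-1.44, adjusted p 0.00916). Between 18303 and 21976 of 47322 probes were detected per array, and replicates correlated across genes at 0.977 to 0.991. The number of arrays limits the precision.

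Histone mRNAs of this kind accumulate in S phase, when NPAT, phosphorylated by cyclin E with CDK2, switches on the clusters. They end in a stem-loop that SLBP binds and that the U7 snRNP machinery trims, in place of the poly(A) tail of other mRNAs, and they are degraded when DNA synthesis stops. Replacement histones such as H3-3A, H3-3B and H2AZ1 are polyadenylated and are made through the whole cell cycle. Labelling in kits of the type named in the labels starts from oligo(dT), so an array signal of a replication-dependent histone gene reads the molecules that this priming copied and may not follow the total histone mRNA. In RNA from a whole culture, fewer cells in S phase and less RNA per cell cannot be told apart.

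The clusters carry short promoter letters that differ by class, and 6 promoters are printed here because they belong to the genes that differed most between HCC38 and the other lines in the H1, H2B, H3 and H4 classes, or to the H4 pair that was highest in MDA-MB-157. Each sequence gives the 250 bases before the RefSeq start (GRCh38.p14), 5′ to 3′ on the gene's own strand. Capitals mark matches on either strand to the octamer ATTTGCAT, the CCAAT box CCAAT, the TATA box TATAAA and the H1 box AAACACA.
H1-2: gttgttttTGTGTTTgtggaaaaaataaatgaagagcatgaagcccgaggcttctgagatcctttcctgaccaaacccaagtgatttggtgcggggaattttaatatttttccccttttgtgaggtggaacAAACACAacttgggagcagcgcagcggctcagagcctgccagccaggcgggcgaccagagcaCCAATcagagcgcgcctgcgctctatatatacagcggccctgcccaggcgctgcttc
H2BC8: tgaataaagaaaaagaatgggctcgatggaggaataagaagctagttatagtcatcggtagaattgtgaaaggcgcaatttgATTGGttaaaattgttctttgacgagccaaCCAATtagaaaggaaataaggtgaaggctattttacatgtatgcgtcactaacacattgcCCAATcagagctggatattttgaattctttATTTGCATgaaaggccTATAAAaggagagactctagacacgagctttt
H3C8: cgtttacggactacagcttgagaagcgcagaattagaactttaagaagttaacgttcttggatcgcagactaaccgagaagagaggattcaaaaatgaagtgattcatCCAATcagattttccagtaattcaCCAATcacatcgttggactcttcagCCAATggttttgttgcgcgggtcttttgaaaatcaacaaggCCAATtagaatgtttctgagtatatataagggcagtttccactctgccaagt
H4C8: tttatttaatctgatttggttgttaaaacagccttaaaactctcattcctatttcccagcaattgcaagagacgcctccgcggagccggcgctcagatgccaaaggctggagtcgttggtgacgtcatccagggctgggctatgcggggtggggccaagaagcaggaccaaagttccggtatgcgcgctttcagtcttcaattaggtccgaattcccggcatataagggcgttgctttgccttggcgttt
H4C11: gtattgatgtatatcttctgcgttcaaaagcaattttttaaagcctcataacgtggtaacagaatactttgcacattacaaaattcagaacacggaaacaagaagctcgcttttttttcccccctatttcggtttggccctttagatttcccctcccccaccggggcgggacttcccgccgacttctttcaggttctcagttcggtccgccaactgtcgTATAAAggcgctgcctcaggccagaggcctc
H4C12: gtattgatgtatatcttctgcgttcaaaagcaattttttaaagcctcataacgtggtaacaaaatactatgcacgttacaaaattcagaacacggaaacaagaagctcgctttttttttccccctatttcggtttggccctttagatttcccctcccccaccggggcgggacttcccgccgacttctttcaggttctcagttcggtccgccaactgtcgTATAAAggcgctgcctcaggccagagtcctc
H1-2, at chr6:26056471-26056720 on the minus strand, holds 2 H1 boxes and 1 CCAAT box. H2BC8, at chr6:26216689-26216938 (minus), holds the octamer, 3 CCAAT boxes and a TATA box, while H3C8, at chr6:26271414-26271663 (minus), holds 4 CCAAT boxes. H4C8, at chr6:26285535-26285784 (minus), holds 0 matches. H4C11, at chr6:27823842-27824091 (plus), and H4C12, at chr6:27831561-27831810 (minus), each hold a TATA box and are near copies of each other.

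A RefSeq promoter was found for 53 of the 55 genes. The octamer, which the POU factor OCT1 binds at H2B genes, stood in 20 of the 53 (37.7%), against 1.66% of 27305 promoters of the same length. It was found in 11 of 14 H2B, 8 of 13 H2A, 1 of 11 H3, 0 of 4 H1 and 0 of 11 H4 promoters. Paired H2A and H2B genes, described below, start 194 to 248 bases apart, which is less than the stretch read for each. Both genes of a pair were thus scored on the same DNA, and 1 match of any motif could count for both. For such pairs the counts cannot tell an octamer of the H2A gene from that of its H2B partner. Shares with shared DNA counted only once were not computed. The CCAAT box stood in 83% of the 53 and 33% of all promoters, and the TATA box in 64.2% and 11.1%. The H1 box was found in 4 of 4 H1 promoters and in no other of the 53 (7.55% of them, 4.95% of all promoters).

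HCC38 had more signal than the other lines for most of the histone genes. At 0 h, 50 of the 55 genes were called higher in HCC38 than in the mean of the other 3 lines (limma, Benjamini-Hochberg adjusted p under 0.05 over 14807 genes), and 0 were called lower. Over all genes tested, 22% were called higher and 21.5% lower in the same comparison. The median difference of the 55 was 2.36 log2 units (-0.25 to 5.73), against -0.04 for all genes. In 47 genes it was over 2-fold, against 9.95% of all genes, and in 15 over 16-fold. In 30 of the 55 at least 1 of the other lines did not detect the gene on either 0 h array, and in 12 none did, so their differences are limited by the floor of dim probes. With such lines raised to the lowest signal of a detected probe the median was 2.28, and 39 genes were over 2-fold and 15 over 16-fold. Shares of all genes over 16-fold, or with lines raised in this way, were not computed. All values below are log2 of the background-corrected, quantile-normalized intensity unless another scale is named, and "difference" means HCC38 minus the mean of the other 3 lines at 0 h, with its SE.

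**Figure D1:**
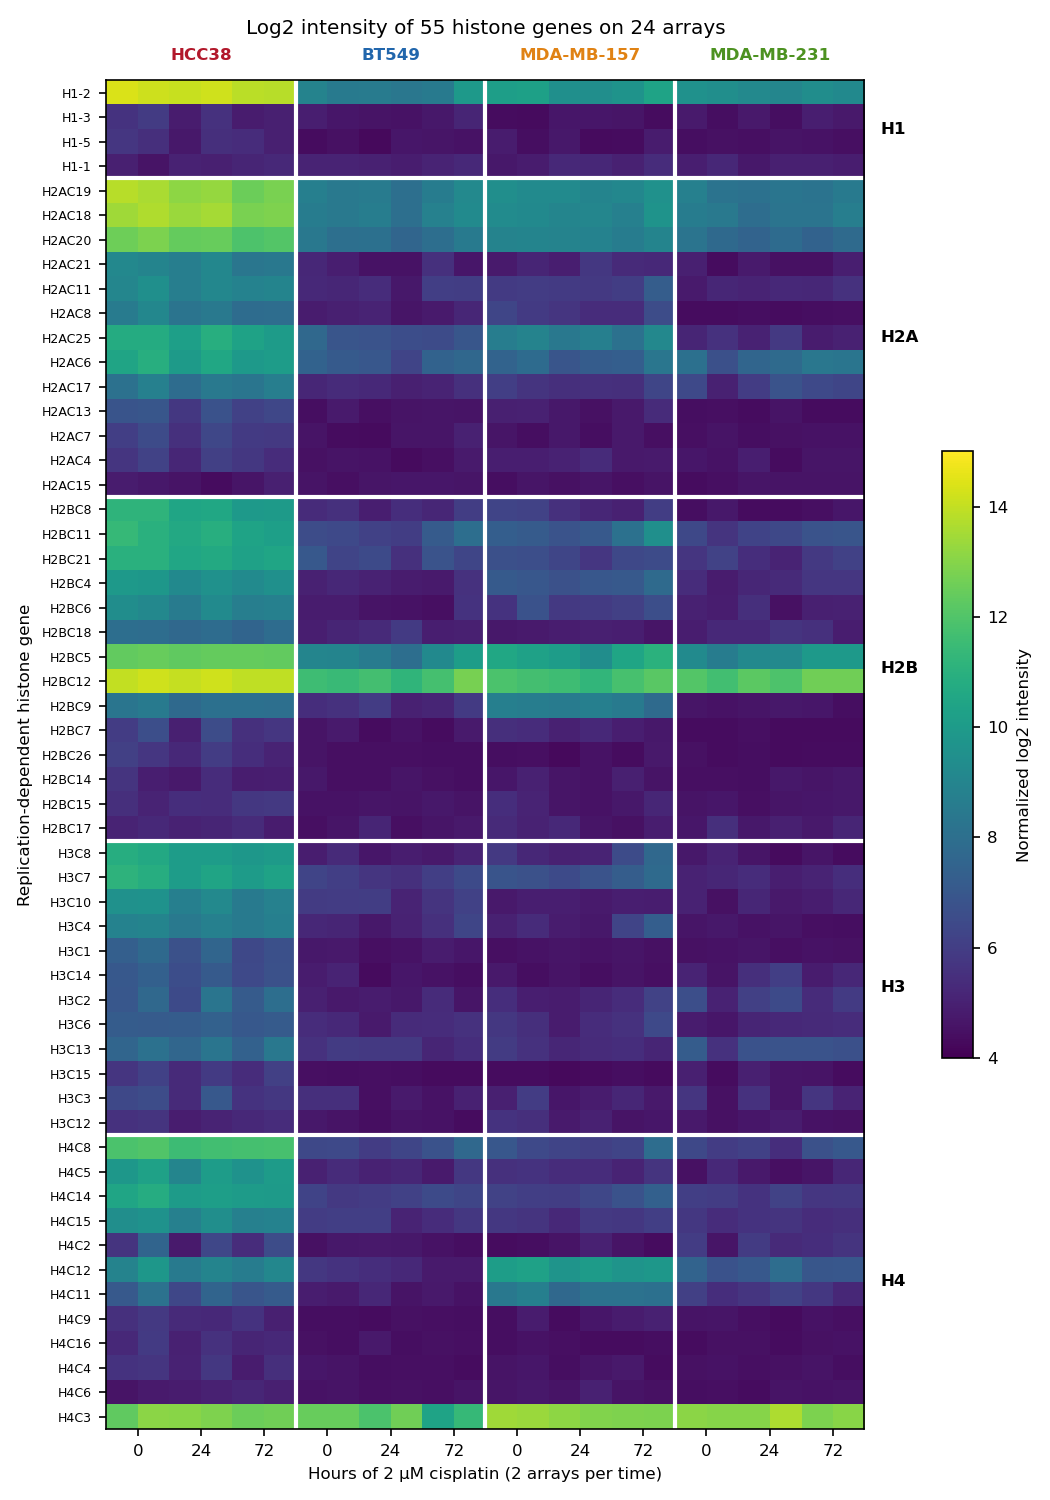
Log2 intensity of the 55 histone genes (rows, grouped by class H1 to H4 and ordered within a class by the difference of HCC38 over the other lines at 0 h) on the 24 arrays (columns, in the order HCC38, BT549, MDA-MB-157, MDA-MB-231, each with 2 arrays at 0, 24 and 72 h). The HCC38 block is brighter in most rows, while the H4C3 row is bright in all 4 lines and the H2BC9, H4C11 and H4C12 rows are also bright in MDA-MB-157.

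The arrays themselves showed the same. Both HCC38 arrays lay above all 6 arrays of the other lines in 44 of 55 genes at 0 h, 42 at 24 h and 43 at 72 h, against 15.1%, 16% and 15.5% of all genes. In 36 of the 55 genes all 6 HCC38 arrays lay above the other 18. The share of all genes with that pattern was not computed, so this count has no background beside it. The median log2 value of the 55 genes per array was 7.76 to 8.51 over the 6 HCC38 arrays, against 4.84 to 5.99 over the other 18. Every one of the 55 genes was detected on at least 1 of the 6 HCC38 arrays and 45 on all 6. On all 6 arrays of their line, 18 were detected in BT549, 27 in MDA-MB-157 and 18 in MDA-MB-231, and on none of them 17 in BT549, 10 in MDA-MB-157 and 20 in MDA-MB-231.

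A gene that passed the detection rule only through HCC38 had to be higher there, so the counts over the 55 are a description. With the rule applied to the other lines alone (detected on at least 2 of their 18 arrays), 44 genes were left, and 41 of them were called higher in HCC38 and 0 lower, against 20.8% higher among 14041 genes. Their median difference was 3.10. Of the 14 genes detected on all 18 arrays of the other lines, 13 were called higher, against 22.9% of 8242 genes, with a median of 4.45. Within each slide, which held 1 array of every group, the median over the 55 was 2.40 on slide 1 (54 of 55 above 0) and 2.33 on slide 2 (53 of 55). The size depended on how background was handled: the median was 1.13 without background correction, 1.29 in the authors' deposited log2 table and 1.56 with a larger offset. The direction of the median was the same in each.

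**Figure D2:**
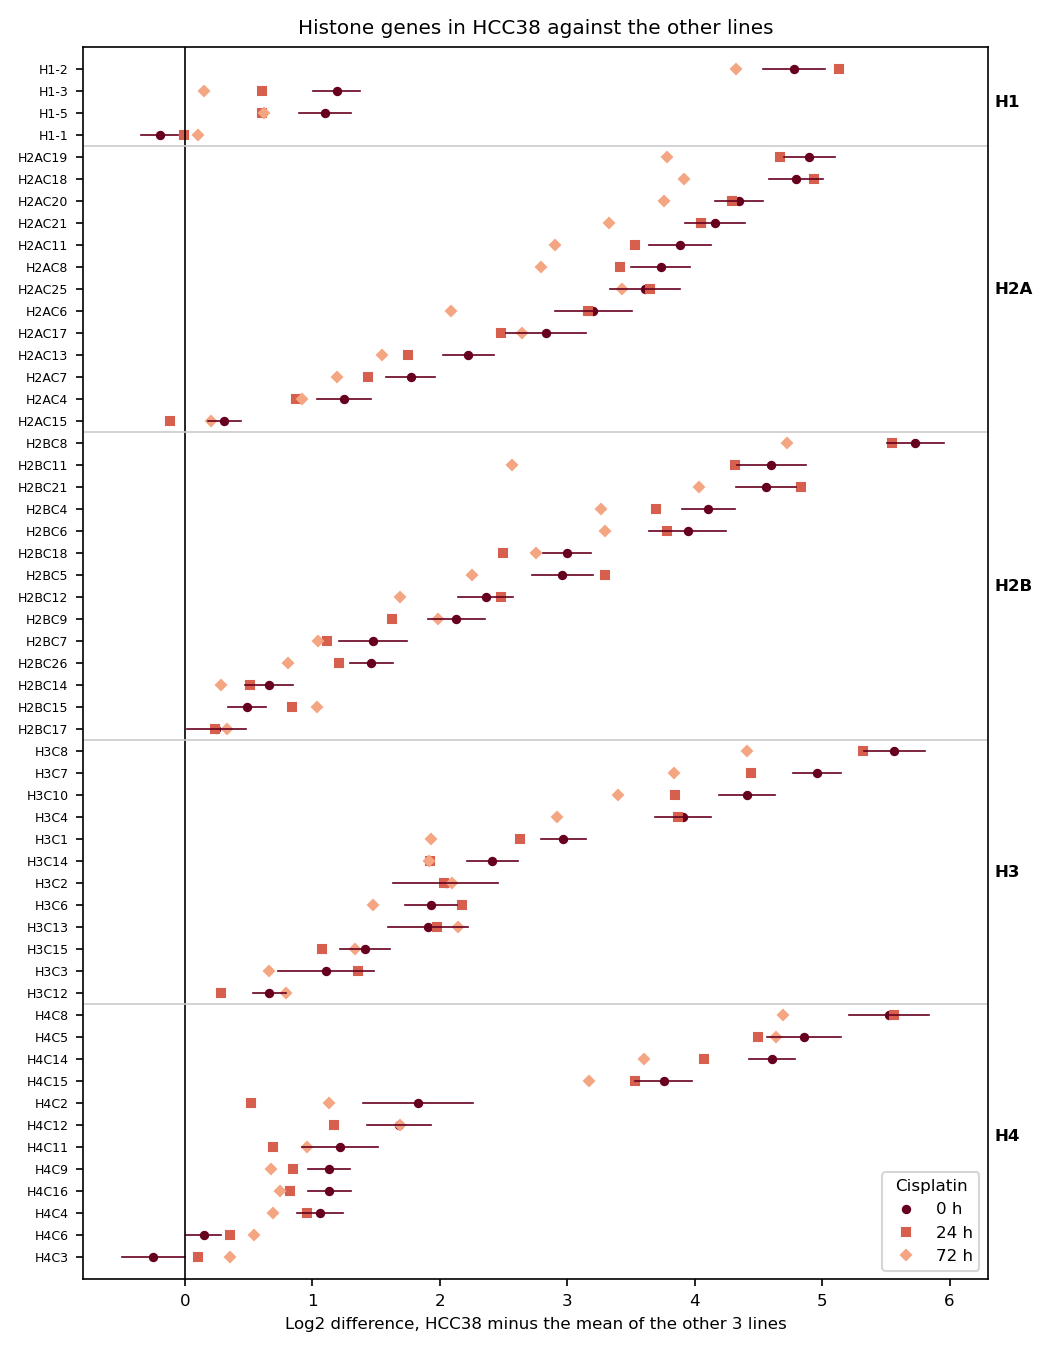
Difference of HCC38 over the mean of the other 3 lines (log2 units, horizontal axis) for each of the 55 histone genes at 0, 24 and 72 h, with bars for the SE of the 0 h difference. Most genes sit right of 0 at all 3 times, and the medians are 2.36 at 0 h, 2.17 at 24 h and 1.98 at 72 h.

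H1 linker histones bind where DNA enters and leaves the nucleosome and help it fold. H1-2 had values of 14.36 and 14.16 at 0 h, 14.07 and 14.22 at 24 h, and 13.86 and 13.81 at 72 h in HCC38. H1-2 in BT549 read 8.94 and 8.50 at 0 h, 8.58 and 8.34 at 24 h, and 8.54 and 9.89 at 72 h, and in MDA-MB-157 it read 10.15 and 10.26 at 0 h, 9.49 and 9.43 at 24 h, and 9.64 and 10.37 at 72 h. H1-2 in MDA-MB-231 read 9.58 and 9.45 at 0 h, 9.19 and 9.05 at 24 h, and 9.40 and 9.23 at 72 h. The 6 HCC38 arrays stood apart from the other 18, and the raw intensity on them was 12774 to 25026, against 377 to 1324 elsewhere. Its difference was 4.78 (SE 0.25, adjusted p 9.22e-12), or 27.5-fold. For H1-3 the HCC38 arrays ran from 4.82 to 5.91 (median 5.27), against 4.31 to 5.13 (median 4.67) for the other lines. H1-5 read 4.69 to 5.75 in HCC38 (median 5.43), against 4.29 to 4.86 elsewhere (median 4.50). Both had a called difference (1.19 and 1.10), but no array of the other lines detected them at 0 h, so only a bound can be given, at least 1.73-fold for H1-3 and at least 1.56-fold for H1-5. H1-1 spanned 4.60 to 5.27 (median 5.01) on the 6 HCC38 arrays, against 4.70 to 5.39 (median 5.002) on the other 18. H1-1, which was among the 5 genes without a call, had a difference of -0.20 (adjusted p 0.303), and its arrays overlapped in all 4 lines.

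H2A pairs with H2B in the dimers that flank the H3 and H4 tetramer of the nucleosome. H2AC18 had values of 13.44 and 13.71 at 0 h, 13.35 and 13.50 at 24 h, and 12.78 and 12.89 at 72 h in HCC38. H2AC18 in BT549 read 8.63 and 8.44 at 0 h, 8.66 and 8.02 at 24 h, and 8.85 and 9.26 at 72 h, and in MDA-MB-157 it read 9.30 and 9.22 at 0 h, 9.01 and 9.06 at 24 h, and 8.80 and 9.67 at 72 h. H2AC18 in MDA-MB-231 read 8.63 and 8.46 at 0 h, 7.95 and 8.21 at 24 h, and 8.24 and 8.71 at 72 h. The HCC38 arrays did not overlap with those of any other line, and the difference was 4.79 (SE 0.21, adjusted p 7.98e-13), or 27.8-fold. A second probe of H2AC18 gave 5.05. For H2AC19 the HCC38 arrays ran from 12.52 to 13.81 (median 13.20), against 8.02 to 9.55 (median 8.69) for the other lines. The difference of H2AC19, a neighbour in the q21 cluster whose promoter is nearly the same, was 4.90 (SE 0.20, adjusted p 3.81e-13), or 29.9-fold.

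The other H2A genes of the q21 cluster followed. H2AC20 read 11.93 to 12.85 in HCC38 (median 12.42), against 7.48 to 8.97 elsewhere (median 8.13). H2AC21 spanned 8.31 to 9.16 (median 8.83) on the 6 HCC38 arrays, against 4.35 to 5.77 (median 4.91) on the other 18. Their differences were 4.34 and 4.16. In the q42 cluster, H2AC25 had a difference of 3.61. For H2AC25 the HCC38 arrays ran from 10.03 to 10.91 (median 10.55), against 4.84 to 9.15 (median 6.86) for the other lines. MDA-MB-157 was also called higher than the mean of its 3 counterparts.

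On chromosome 6 the H2A genes ranged more widely. H2AC11 read 8.69 to 9.46 in HCC38 (median 9.003), against 4.72 to 7.27 elsewhere (median 5.49). H2AC8 spanned 7.90 to 9.11 (median 8.34) on the 6 HCC38 arrays, against 4.35 to 6.55 (median 4.91) on the other 18. For H2AC6 the HCC38 arrays ran from 9.90 to 10.88 (median 10.26), against 6.24 to 8.38 (median 7.50) for the other lines. These had differences of 3.88, 3.73 and 3.20, with adjusted p of 1.77e-10, 1.35e-10 and 4.87e-08. A second probe of H2AC11 gave 1.34, but it was detected on 6 arrays only and gives no more than a lower bound. H2AC17 read 7.87 to 8.80 in HCC38 (median 8.35), against 4.99 to 6.82 elsewhere (median 5.51). H2AC13 spanned 5.80 to 6.95 (median 6.54) on the 6 HCC38 arrays, against 4.36 to 5.37 (median 4.57) on the other 18. H2AC17 and H2AC13 differed by 2.83 and 2.22, again without overlap between HCC38 and the other arrays. BT549 and MDA-MB-231 did not detect H2AC13 at 0 h, which bounds its difference at 1.93 or more. For H2AC7 the HCC38 arrays ran from 5.52 to 6.53 (median 5.94), against 4.33 to 4.99 (median 4.54) for the other lines. H2AC4 read 5.16 to 6.16 in HCC38 (median 5.75), against 4.33 to 5.35 elsewhere (median 4.64). Neither was detected in the other lines at 0 h, which bounds the difference at 2.48-fold or more for H2AC7 and 1.95-fold or more for H2AC4. H2AC15 spanned 4.38 to 4.96 (median 4.67) on the 6 HCC38 arrays, against 4.36 to 4.69 (median 4.57) on the other 18. H2AC15 overlapped between all lines, with a difference of 0.31 (adjusted p 0.0642), and was undetected in the other lines at 0 h.

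Among the H2B genes, H2BC8 stood furthest apart. H2BC8 had values of 11.13 and 11.15 at 0 h, 10.47 and 10.56 at 24 h, and 9.90 and 9.99 at 72 h in HCC38. H2BC8 in BT549 read 5.36 and 5.52 at 0 h, 4.94 and 5.44 at 24 h, and 5.19 and 6.0001 at 72 h, and in MDA-MB-157 it read 6.27 and 6.17 at 0 h, 5.55 and 5.16 at 24 h, and 5.03 and 5.99 at 72 h. H2BC8 in MDA-MB-231 read 4.42 and 4.72 at 0 h, 4.36 and 4.37 at 24 h, and 4.46 and 4.66 at 72 h. All 6 HCC38 arrays were far above the other 18, and the difference was 5.73 (SE 0.22, adjusted p 1.6e-13), or 53.2-fold. MDA-MB-231 read lowest and was detected on 0 of its 6 arrays, and with it at the lowest detected signal HCC38 was at least 48.1-fold higher. H2BC12 had values of 13.98 and 14.20 at 0 h, 14.04 and 14.21 at 24 h, and 13.97 and 13.97 at 72 h in HCC38. H2BC12 in BT549 read 11.60 and 11.46 at 0 h, 11.70 and 11.20 at 24 h, and 11.74 and 12.74 at 72 h, and in MDA-MB-157 it read 11.90 and 11.72 at 0 h, 11.57 and 11.23 at 24 h, and 11.80 and 12.19 at 72 h. H2BC12 in MDA-MB-231 read 12.08 and 11.65 at 0 h, 12.24 and 11.93 at 24 h, and 12.62 and 12.60 at 72 h. H2BC12 was bright in all 4 lines and still did not overlap between HCC38 and the others, with a difference of 2.36 (SE 0.21, adjusted p 3.12e-08) and 3.57 from a second probe. In HCC38 that second probe, detected on 24 arrays, changed by -0.64 at 24 h and -1.10 at 72 h against 0 h. The probe used here changed by 0.03 and -0.13.

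The remaining H2B genes spread between these and no difference. For H2BC21 the HCC38 arrays ran from 10.28 to 10.98 (median 10.60), against 5.10 to 7.04 (median 6.27) for the other lines. H2BC4 read 9.21 to 9.94 in HCC38 (median 9.53), against 4.78 to 7.79 elsewhere (median 5.47). H2BC6 spanned 8.58 to 9.38 (median 8.97) on the 6 HCC38 arrays, against 4.43 to 6.75 (median 4.998) on the other 18. Differences of 4.56, 4.11 and 3.95 were measured for these 3 genes, each with HCC38 above all 18 other arrays. For H2BC18 the HCC38 arrays ran from 7.55 to 7.96 (median 7.90), against 4.64 to 5.86 (median 4.95) for the other lines. Its difference was 2.998. A further pair of probes, designed to another transcript accession, was detected on 1 and 0 arrays. Their differences of 0.01 and -0.06 are thus between signals that were almost never detected. H2BC7 read 4.95 to 6.63 in HCC38 (median 5.85), against 4.30 to 5.46 elsewhere (median 4.56). H2BC26 spanned 5.08 to 6.09 (median 5.59) on the 6 HCC38 arrays, against 4.29 to 4.76 (median 4.42) on the other 18. H2BC7 differed by 1.48, or at least 1.18, since BT549 and MDA-MB-231 did not detect it at 0 h. H2BC26, undetected in the other lines at 0 h, was at least 1.93-fold higher in HCC38. For H2BC14 the HCC38 arrays ran from 4.74 to 5.63 (median 4.93), against 4.42 to 4.999 (median 4.61) for the other lines. H2BC15 read 5.08 to 5.82 in HCC38 (median 5.47), against 4.46 to 5.44 elsewhere (median 4.63). Both were called with small differences, 0.66 (adjusted p 0.00764) and 0.48 (adjusted p 0.0129), and their arrays overlapped. BT549 and MDA-MB-231 detected neither gene at 0 h, which bounds the differences at 0.36 or more for H2BC14 and 0.23 or more for H2BC15. H2BC17 spanned 4.86 to 5.34 (median 5.10) on the 6 HCC38 arrays, against 4.43 to 5.50 (median 4.74) on the other 18. H2BC17 was not called (0.25, adjusted p 0.431).

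H3 carries the long tail that receives many of the known histone marks, and all 12 H3 genes were called higher in HCC38. H3C7 had values of 11.11 and 10.86 at 0 h, 10.08 and 10.43 at 24 h, and 10.02 and 10.34 at 72 h in HCC38. H3C7 in BT549 read 6.25 and 6.05 at 0 h, 5.69 and 5.53 at 24 h, and 6.06 and 6.46 at 72 h, and in MDA-MB-157 it read 6.87 and 6.73 at 0 h, 6.47 and 6.81 at 24 h, and 7.23 and 7.80 at 72 h. H3C7 in MDA-MB-231 read 5.06 and 5.20 at 0 h, 5.38 and 4.94 at 24 h, and 5.07 and 5.46 at 72 h. The HCC38 arrays lay above the rest, MDA-MB-231 lay lowest, and the difference was 4.96 (SE 0.19, adjusted p 1.02e-13), or 31.1-fold. For H3C10 the HCC38 arrays ran from 8.52 to 9.62 (median 9.01), against 4.49 to 6.13 (median 4.99) for the other lines. H3C4 read 8.44 to 8.98 in HCC38 (median 8.77), against 4.41 to 7.28 elsewhere (median 4.93). Differences of 4.41 and 3.91 were found for these. The largest in the class was that of H3C8, 5.57 (SE 0.24, adjusted p 6.6e-13), or 47.4-fold, whose values on every array are given with the time comparisons.

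Others in the class were dimmer. H3C1 spanned 6.39 to 7.77 (median 7.03) on the 6 HCC38 arrays, against 4.43 to 4.84 (median 4.54) on the other 18. No array of the other lines detected it at 0 h, which puts HCC38 at least 5.96-fold higher. For H3C14 the HCC38 arrays ran from 6.43 to 7.39 (median 6.88), against 4.32 to 6.06 (median 4.63) for the other lines. H3C2 read 6.49 to 8.26 in HCC38 (median 7.44), against 4.63 to 6.63 elsewhere (median 5.23). H3C6 spanned 7.02 to 7.43 (median 7.18) on the 6 HCC38 arrays, against 4.66 to 6.45 (median 5.37) on the other 18. Their differences were 2.41, 2.05 and 1.93, and H3C2 overlapped slightly between HCC38 and MDA-MB-231. For H3C13 the HCC38 arrays ran from 7.44 to 8.40 (median 7.87), against 5.14 to 7.22 (median 5.70) for the other lines. H3C13 differed by 1.90 from its brightest probe and by 2.30 from a second one (detected on 15 arrays). A further probe, detected on 3 arrays only, did not show this and gave -0.17. H3C15 read 5.30 to 6.13 in HCC38 (median 5.78), against 4.30 to 4.96 elsewhere (median 4.39). It was undetected in the other lines at 0 h and at least 1.92-fold higher in HCC38. H3C3 spanned 5.31 to 7.05 (median 6.08) on the 6 HCC38 arrays, against 4.44 to 5.97 (median 4.98) on the other 18. H3C3 was called higher in HCC38 (1.11, adjusted p 0.0225) although the joint test of the 4 lines did not call it (adjusted p 0.0712).

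H4 genes encode nearly the same protein from many loci, and they split more than the other classes. H4C8 had values of 11.90 and 12.0003 at 0 h, 11.52 and 11.69 at 24 h, and 11.74 and 11.81 at 72 h in HCC38. H4C8 in BT549 read 6.38 and 6.44 at 0 h, 5.98 and 6.31 at 24 h, and 6.78 and 7.71 at 72 h, and in MDA-MB-157 it read 6.99 and 6.42 at 0 h, 6.26 and 6.10 at 24 h, and 6.25 and 7.94 at 72 h. H4C8 in MDA-MB-231 read 6.37 and 5.96 at 0 h, 6.15 and 5.45 at 24 h, and 6.75 and 7.04 at 72 h. HCC38 stood above every other array, with a difference of 5.53 (SE 0.32, adjusted p 4.62e-11), or 46.1-fold. For H4C5 the HCC38 arrays ran from 8.995 to 10.31 (median 9.94), against 4.44 to 5.77 (median 5.19) for the other lines. H4C14 read 9.998 to 10.83 in HCC38 (median 10.11), against 5.60 to 7.38 elsewhere (median 6.09). H4C15 spanned 8.77 to 9.62 (median 9.15) on the 6 HCC38 arrays, against 5.08 to 6.06 (median 5.71) on the other 18. Differences of 4.86, 4.60 and 3.76 were measured for H4C5 on chromosome 6 and the q21 genes H4C14 and H4C15. For H4C2 the HCC38 arrays ran from 4.80 to 7.53 (median 5.99), against 4.35 to 5.96 (median 4.66) for the other lines. Its arrays overlapped, with a difference of 1.83 (adjusted p 0.00163). BT549 and MDA-MB-157 did not detect H4C2 at 0 h, which bounds the difference at 1.52 or more. H4C9 read 4.96 to 5.82 in HCC38 (median 5.43), against 4.34 to 4.995 elsewhere (median 4.47). H4C4 spanned 4.85 to 5.80 (median 5.56) on the 6 HCC38 arrays, against 4.37 to 4.75 (median 4.49) on the other 18. For H4C16 the HCC38 arrays ran from 5.01 to 5.88 (median 5.27), against 4.36 to 4.75 (median 4.45) for the other lines. For these 3 dim genes, undetected in the other lines at 0 h, HCC38 was at least 1.63-fold, 1.60-fold and 1.53-fold higher. H4C6 read 4.59 to 5.18 in HCC38 (median 4.90), against 4.38 to 5.004 elsewhere (median 4.55). H4C6, undetected in the other lines at 0 h, was not called (0.15, adjusted p 0.429).

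H4C3 was the exception among bright genes. H4C3 had values of 12.32 and 13.10 at 0 h, 13.06 and 12.87 at 24 h, and 12.54 and 12.62 at 72 h in HCC38. H4C3 in BT549 read 12.43 and 12.44 at 0 h, 11.91 and 12.61 at 24 h, and 10.36 and 11.38 at 72 h, and in MDA-MB-157 it read 13.43 and 13.34 at 0 h, 13.14 and 12.92 at 24 h, and 12.89 and 12.84 at 72 h. H4C3 in MDA-MB-231 read 13.08 and 13.02 at 0 h, 12.98 and 13.63 at 24 h, and 12.81 and 13.06 at 72 h. HCC38 overlapped with each of the other lines, BT549 lay below MDA-MB-157 on every array, and the difference of HCC38 was -0.25 (SE 0.25, adjusted p 0.458). Its raw intensity was 1330 to 13993 over the 24 arrays, and it was detected on all of them. The joint test of the 4 lines at 0 h called it (adjusted p 0.0436), as it did 50 of the 55 genes, against 66.8% of all genes. MDA-MB-157 was called higher than the mean of its 3 counterparts (0.65, adjusted p 0.0376).

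**Figure D3:**
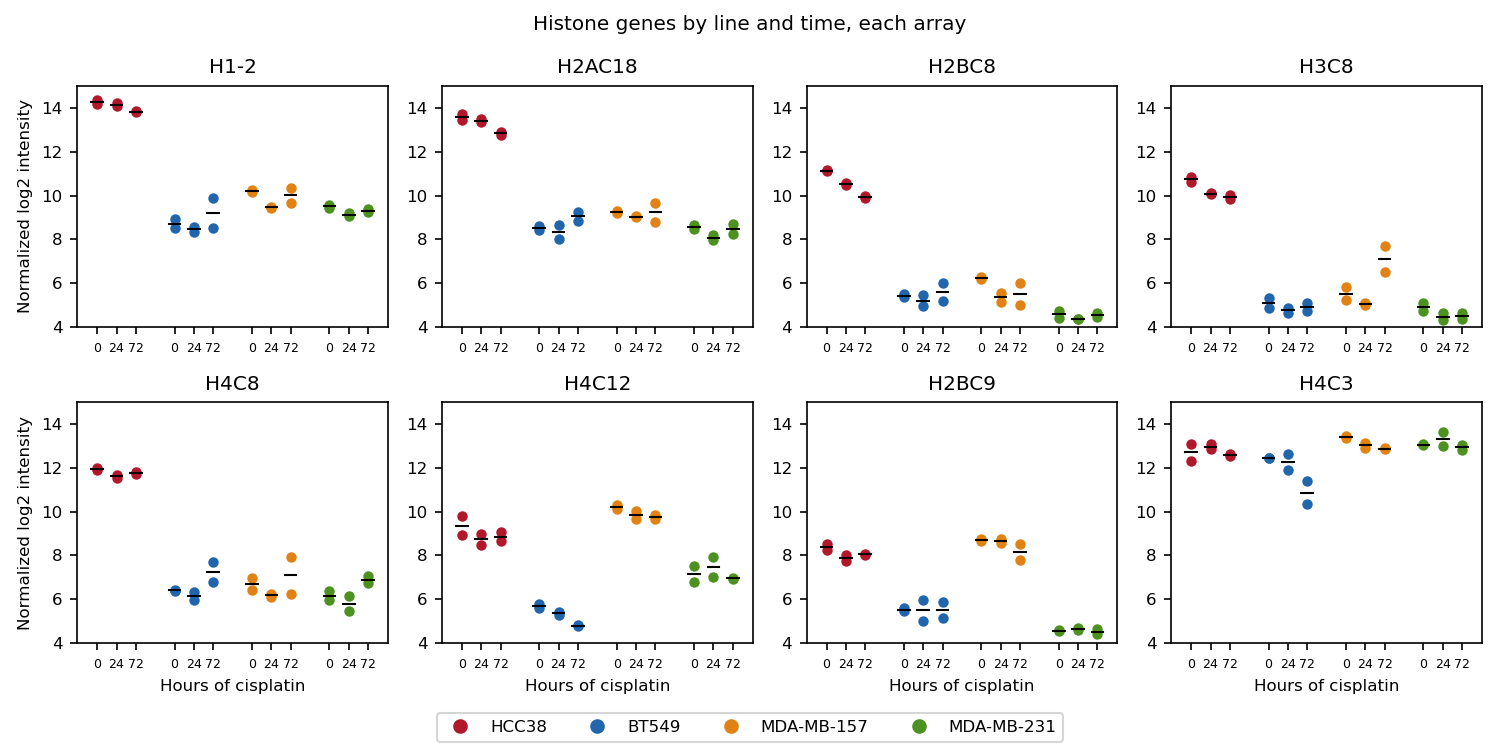
Log2 intensity (vertical axis) on each array (dots) and group means (bars) of H1-2, H2AC18, H2BC8, H3C8, H4C8, H4C12, H2BC9 and H4C3 in each of the 4 lines at 0, 24 and 72 h. HCC38 stands highest for the first 5 genes, MDA-MB-157 is highest for H4C12 and level with or above HCC38 for H2BC9, and H4C3 is 12.32 to 13.63 in 3 lines and 10.36 to 12.61 in BT549.

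A few histone genes were highest in MDA-MB-157. Against the mean of the other lines at 0 h, 7 of the 55 genes were called higher in MDA-MB-157 (H2AC25, H2BC9, H2BC15, H3C12, H4C3, H4C11 and H4C12) and 25 lower, against 21% and 22.2% of all genes, so higher calls were not more frequent than in the background. By the mean of the 3 times, MDA-MB-157 was the highest line for H2BC9, H4C11 and H4C12, HCC38 for 50 genes, BT549 for H1-1 and MDA-MB-231 for H4C3. H4C12 had values of 8.91 and 9.81 at 0 h, 8.49 and 8.98 at 24 h, and 8.64 and 9.08 at 72 h in HCC38. H4C12 in BT549 read 5.78 and 5.62 at 0 h, 5.43 and 5.27 at 24 h, and 4.77 and 4.81 at 72 h, and in MDA-MB-157 it read 10.11 and 10.30 at 0 h, 9.68 and 10.03 at 24 h, and 9.67 and 9.83 at 72 h. H4C12 in MDA-MB-231 read 7.51 and 6.78 at 0 h, 7.03 and 7.91 at 24 h, and 6.95 and 6.98 at 72 h. At each time both MDA-MB-157 arrays lay above both HCC38 arrays, BT549 lay lowest, and at 0 h MDA-MB-157 exceeded the mean of its counterparts by 2.80 (SE 0.25, adjusted p 2.68e-08).

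Its near copy showed the same order at each time. H4C11 had values of 7.09 and 8.13 at 0 h, 6.33 and 7.56 at 24 h, and 6.89 and 7.18 at 72 h in HCC38. H4C11 in BT549 read 4.86 and 4.79 at 0 h, 5.21 and 4.59 at 24 h, and 4.75 and 4.52 at 72 h, and in MDA-MB-157 it read 8.39 and 8.76 at 0 h, 7.70 and 8.16 at 24 h, and 8.13 and 8.06 at 72 h. H4C11 in MDA-MB-231 read 6.10 and 5.45 at 0 h, 5.70 and 6.18 at 24 h, and 5.80 and 5.21 at 72 h. At 0 h MDA-MB-157 exceeded the mean of the others by 2.51 (SE 0.30, adjusted p 1.43e-06). H2BC9 had values of 8.27 and 8.51 at 0 h, 7.76 and 8.04 at 24 h, and 8.08 and 8.02 at 72 h in HCC38. H2BC9 in BT549 read 5.45 and 5.58 at 0 h, 5.97 and 5.03 at 24 h, and 5.15 and 5.89 at 72 h, and in MDA-MB-157 it read 8.75 and 8.65 at 0 h, 8.57 and 8.75 at 24 h, and 8.52 and 7.81 at 72 h. H2BC9 in MDA-MB-231 read 4.60 and 4.54 at 0 h, 4.61 and 4.70 at 24 h, and 4.65 and 4.40 at 72 h. This gene was high in HCC38 and MDA-MB-157 and dim in the other pair of lines, and its MDA-MB-157 difference was 2.54 (SE 0.23, adjusted p 2.9e-08). H2BC9 and H3C7 lie close together on chromosome 6 (starts at 26251614 and 26250142, GRCh38.p14), but the HCC38 difference of H2BC9 was 2.13 and that of H3C7 was 4.96.

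Near-identical copies limit which locus a signal belongs to. Aligned over 300 bases of promoter, H4C14 and H4C15 were 100% identical, H2AC18 and H2AC19 99.3%, H4C11 and H4C12 98.3%, and H3C14 and H3C15 97.4% (identical columns of the alignment). The coding sequences of histone genes are likewise close, the probe sequences were not examined, and so the probes of such a pair may read RNA of both genes. The difference of HCC38 over the other lines was 4.60 and 3.76 for H4C14 and H4C15, 4.79 and 4.90 for H2AC18 and H2AC19, and 1.22 and 1.68 for H4C11 and H4C12. For H3C14 it was 2.41, and for H3C15 there is only the bound given above. Of less similar pairs, H2BC11 and H2BC12 (74.4%) differed by 4.60 and 2.36, and H4C5 and H4C8 (70.2%) by 4.86 and 5.53, so the values of these pairs were not ordered by the likeness of their promoters.

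An H2A and an H2B gene often share one promoter region and run in opposite directions. There were 8 such pairs, with 194 to 248 bases between their RefSeq starts. In 4 pairs both genes differed by over 3 log2 units, namely H2AC11 with H2BC11 (3.88 and 4.60), H2AC20 with H2BC21 (4.34 and 4.56), H2AC6 with H2BC4 (3.20 and 4.11) and H2AC8 with H2BC8 (3.73 and 5.73). H2AC17 with H2BC17 had 2.83 and 0.25. H2AC15 with H2BC15 had 0.31 and 0.48, H2AC25 with H2BC26 had 3.61 and 1.46, and H2AC7 with H2BC7 had 1.77 and 1.48. In these pairs H2AC15, H2BC26 and H2AC7 were not detected in the other lines at 0 h, so their values are limited by the floor. Single lines also missed genes of other pairs at 0 h, namely H2AC8 and H2BC8 in MDA-MB-231 and H2BC17 in BT549. No test was made of these pairs.

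By position, the median difference was 4.16 for the 11 genes of the q21 cluster and 2.05 for the 41 of chromosome 6, or 4.04 (0.94 to 4.90) and 1.93 (-0.27 to 5.59) with undetecting lines raised to the lowest detected signal. By class it was 1.14 for H1, 3.61 for H2A, 2.66 for H2B, 2.23 for H3 and 1.45 for H4, or 0.72, 3.52, 2.64, 2.16 and 1.35 with those bounds. Each range overlapped with the others. These are descriptions without a test. Near-identical copies enter the medians as separate genes. They are H2AC18 and H2AC19, H4C14 and H4C15, and H3C14 and H3C15 in q21, and H4C11 and H4C12 on chromosome 6. Their probes may read RNA of both copies, so the same signal may be counted again, most of all in the q21 median.

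No histone gene was called at 24 h of cisplatin. Averaged over the 4 lines, 0 of the 55 genes were called at 24 h against 0 h, and 0.0135% of all genes were. The median change was -0.15 log2 units, and 49 of 55 genes were below 0, with 9 lower and 1 higher at an unadjusted p under 0.05 (664 lower and 632 higher over all genes). The slides differed in size, at -0.27 and -0.10. In single lines the median change at 24 h was -0.35 in HCC38, -0.17 in BT549, -0.21 in MDA-MB-157 and 0.03 in MDA-MB-231, with 0 genes called in each, against 0% of all genes in HCC38, 0.027% in BT549, 0% in MDA-MB-157 and 0% in MDA-MB-231. The small medians depended on the table: in the authors' deposited log2 table they were 0.15 in BT549, with 16 of 55 below 0 in place of 44, and -0.13 in MDA-MB-231. With each array scaled to its median, BT549 was at -0.30 beside -0.40 for all genes.

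**Figure D4:**
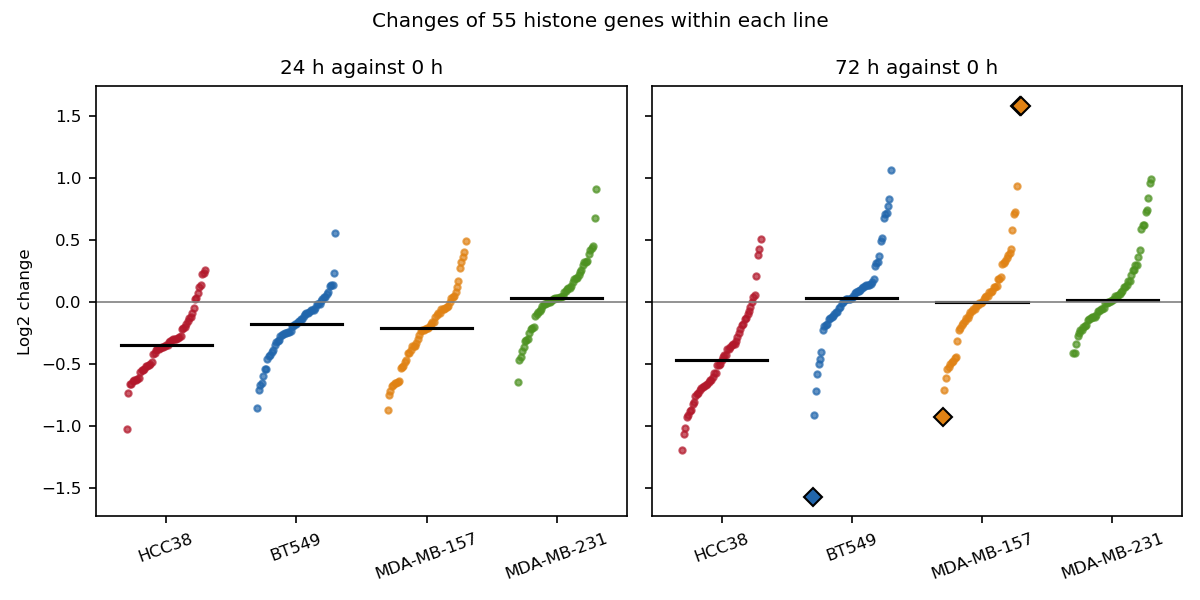
Log2 change of each of the 55 histone genes (dots) in each line, at 24 h against 0 h (left) and 72 h against 0 h (right). The black line is the median and diamonds are genes with an adjusted p under 0.05, which were H4C3 in BT549 and H3C4, H3C8 and H3C12 in MDA-MB-157, all at 72 h.

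At 72 h calls were made in BT549 and MDA-MB-157 alone, and their number was 4 in all. HCC38 had a median change of -0.47 against its 0 h, with 48 of 55 genes below 0. None was called (0.081% of all genes were), and 17 were lower and 3 higher at an unadjusted p under 0.05 (851 lower and 677 higher over all genes). The largest decreases were those of H2BC8 (-1.19, adjusted p 0.0890), H2AC19 (-1.06, adjusted p 0.0923) and H3C1 (-1.01, adjusted p 0.0817). Slides again differed in the median, at -0.67 and -0.30, and at 24 h at -0.62 and 0.00 in HCC38. The median change at 72 h was 0.03 in BT549, 0.00 in MDA-MB-157 and 0.02 in MDA-MB-231, and it was 0.27, -0.10 and -0.07 by the log2 table that the authors deposited. In HCC38 the number of calls was 6 without background correction and 4 with an offset of 50. Over all genes the calls were 12 as reported and 67 and 72 in these settings. The 24 h and 72 h changes of a line share its 0 h arrays. Whether the changes differed between lines was tested with an F test, which called 0 of the 55 genes at 24 h (4 at an unadjusted p under 0.05) and 0 at 72 h (16), against 0% and 0.0405% of all genes. Over all 14807 genes the unadjusted counts of that test were 630 at 24 h and 1411 at 72 h.

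In BT549, H4C3 fell by 1.57 log2 units at 72 h (SE 0.30, adjusted p 0.0143), the sole call there, against 0.473% of all genes lower and 0.534% higher. Its array values, 10.36 and 11.38 at 72 h against 12.43 and 12.44 at 0 h, did not overlap, and the slides gave -2.08 and -1.06. Without the first or the second 0 h array the adjusted p was 0.0870 and 0.127, and without the first replicate at 72 h the change was -1.06 (adjusted p 0.0984). In HCC38, MDA-MB-157 and MDA-MB-231 the H4C3 change at 72 h was -0.13, -0.52 and -0.12, none of them called. MDA-MB-231 had 0 calls at 72 h, against 0.00675% of all genes.

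MDA-MB-157 at 72 h had 3 calls, all in H3 genes: H3C4 and H3C8 were higher and H3C12 lower, against 0.0675% of all genes higher and 0.0135% lower. H3C4 had values of 8.87 and 8.98 at 0 h, 8.44 and 8.79 at 24 h, and 8.48 and 8.75 at 72 h in HCC38. H3C4 in BT549 read 5.22 and 5.15 at 0 h, 4.69 and 5.04 at 24 h, and 5.52 and 6.28 at 72 h, and in MDA-MB-157 it read 5.02 and 5.36 at 0 h, 4.84 and 4.72 at 24 h, and 6.25 and 7.28 at 72 h. H3C4 in MDA-MB-231 read 4.63 and 4.72 at 0 h, 4.55 and 4.62 at 24 h, and 4.45 and 4.41 at 72 h. H3C4 rose by 1.58 (SE 0.27, adjusted p 0.0311) in MDA-MB-157, with both 72 h arrays above the 0 h ones. H3C8 had values of 10.85 and 10.63 at 0 h, 10.06 and 10.09 at 24 h, and 9.83 and 10.002 at 72 h in HCC38. H3C8 in BT549 read 4.86 and 5.31 at 0 h, 4.65 and 4.88 at 24 h, and 4.73 and 5.09 at 72 h, and in MDA-MB-157 it read 5.82 and 5.23 at 0 h, 4.997 and 5.09 at 24 h, and 6.51 and 7.71 at 72 h. H3C8 in MDA-MB-231 read 4.71 and 5.11 at 0 h, 4.63 and 4.30 at 24 h, and 4.62 and 4.38 at 72 h. H3C8 rose by 1.58 as well (SE 0.29, adjusted p 0.0423), while its value in HCC38 changed by -0.82 (adjusted p 0.300). Both genes read higher on the array of the second replicate at 72 h. Without that array they were 1.06 (adjusted p 0.614) for H3C4 and 0.98 (adjusted p 0.744) for H3C8, and without either 0 h array of the line neither was called. Within slides the change of H3C4 was 2.26 and 0.89 and that of H3C8 1.90 and 1.27. The H3C8 call ended with 19 of 24 arrays left out in turn, arrays of other lines included.

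H3C12 ran the other way. H3C12 had values of 5.57 and 5.64 at 0 h, 4.90 and 5.09 at 24 h, and 5.27 and 5.38 at 72 h in HCC38. H3C12 in BT549 read 4.73 and 4.59 at 0 h, 4.43 and 4.59 at 24 h, and 4.56 and 4.37 at 72 h, and in MDA-MB-157 it read 5.61 and 5.48 at 0 h, 4.79 and 4.996 at 24 h, and 4.59 and 4.65 at 72 h. H3C12 in MDA-MB-231 read 4.76 and 4.51 at 0 h, 4.65 and 4.84 at 24 h, and 4.53 and 4.49 at 72 h. In MDA-MB-157 it fell by 0.92 at 72 h (SE 0.16, adjusted p 0.0311), was not detected on either 72 h array, and was thus at least 1.55-fold lower. Within slides the change was -0.96 and -0.89, and the call ended without any 1 of the line's own 0 h and 72 h arrays (adjusted p 0.112 to 0.377). Averaged over the lines, H3C12 was also the sole gene of the 55 called at 72 h against 0 h (-0.38, SE 0.08, adjusted p 0.0267), against 0.702% of all genes lower and 0.507% higher. H3C12 was detected on 0 of 6 BT549 and 0 of 6 MDA-MB-231 arrays, so these lines add only floor signal to the average. Without MDA-MB-157 that average was -0.20 (adjusted p 0.398), and it was not called without HCC38 (adjusted p 0.0973) or BT549 (adjusted p 0.0852). Scaling each array to its median (adjusted p 0.427), the authors' deposited log2 table (-0.07, adjusted p 0.796) and leaving out background correction (adjusted p 0.0564) ended the call, as did 11 of 24 single arrays left out in turn (adjusted p up to 0.0760). Its difference of HCC38 over the other lines at 0 h was 0.66 (SE 0.13, adjusted p 0.000354), or at least 0.45 with undetecting lines at the lowest detected signal. H3C12 lies at chr6:27890315-27890826 (GRCh38.p14).

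Between 24 h and 72 h, 3 genes were called higher in the average over the lines, H2BC11, H2BC5 and H3C4, against 0.108% of all genes, and 0 lower, against 0.0405%. H2BC11 had values of 11.38 and 10.97 at 0 h, 10.63 and 10.88 at 24 h, and 10.38 and 10.21 at 72 h in HCC38. H2BC11 in BT549 read 6.55 and 6.43 at 0 h, 6.11 and 5.99 at 24 h, and 7.15 and 7.96 at 72 h, and in MDA-MB-157 it read 7.29 and 7.16 at 0 h, 6.82 and 7.09 at 24 h, and 8.11 and 9.46 at 72 h. H2BC11 in MDA-MB-231 read 6.38 and 5.65 at 0 h, 6.23 and 6.40 at 24 h, and 6.80 and 6.90 at 72 h. The change of H2BC11 was 0.85 (SE 0.16, adjusted p 0.0486), with higher 72 h arrays in 3 lines and lower ones in HCC38. H2BC5 had values of 12.37 and 12.44 at 0 h, 12.33 and 12.39 at 24 h, and 12.39 and 12.36 at 72 h in HCC38. H2BC5 in BT549 read 9.02 and 8.95 at 0 h, 8.59 and 7.96 at 24 h, and 9.20 and 10.13 at 72 h, and in MDA-MB-157 it read 10.54 and 10.29 at 0 h, 10.08 and 9.40 at 24 h, and 10.45 and 11.04 at 72 h. H2BC5 in MDA-MB-231 read 9.28 and 8.61 at 0 h, 9.18 and 9.20 at 24 h, and 9.94 and 9.93 at 72 h. H2BC5 changed by 0.79 (SE 0.15, adjusted p 0.0486), and the HCC38 arrays stayed within 12.33 to 12.44 for this probe. A second probe of H2BC5, detected on 24 arrays, changed in HCC38 by -0.28 at 24 h and -0.56 at 72 h, both against 0 h. At 0 h the HCC38 difference of H2BC5 was 2.96, with 3.15 from the second probe and 1.65 from a further one detected on 6 arrays only. The HCC38 difference of H2BC11 at 0 h was 4.60. H3C4 changed by 0.72 (SE 0.14, adjusted p 0.0486). Against 0 h the 72 h averages were 0.65, 0.49 and 0.43 for H2BC11, H2BC5 and H3C4, with adjusted p of 0.0593, 0.103 and 0.118.

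The 3 calls stood just under the threshold, and leaving out 1 array in turn ended the call with 20 of 24 arrays for H2BC11, 19 of 24 for H2BC5 and 20 of 24 for H3C4. H3C4 was at 0.29 (adjusted p 0.702) and H2BC11 at 0.53 without MDA-MB-157, and the mean over all probes of H2BC5 gave 0.38 (adjusted p 0.263). Median scaling and the authors' deposited log2 table left 0 of the 3. Within slides the changes kept their sign, at 0.96 and 0.75 for H2BC11, 0.59 and 0.99 for H2BC5, and 0.79 and 0.65 for H3C4.

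**Figure D5:**
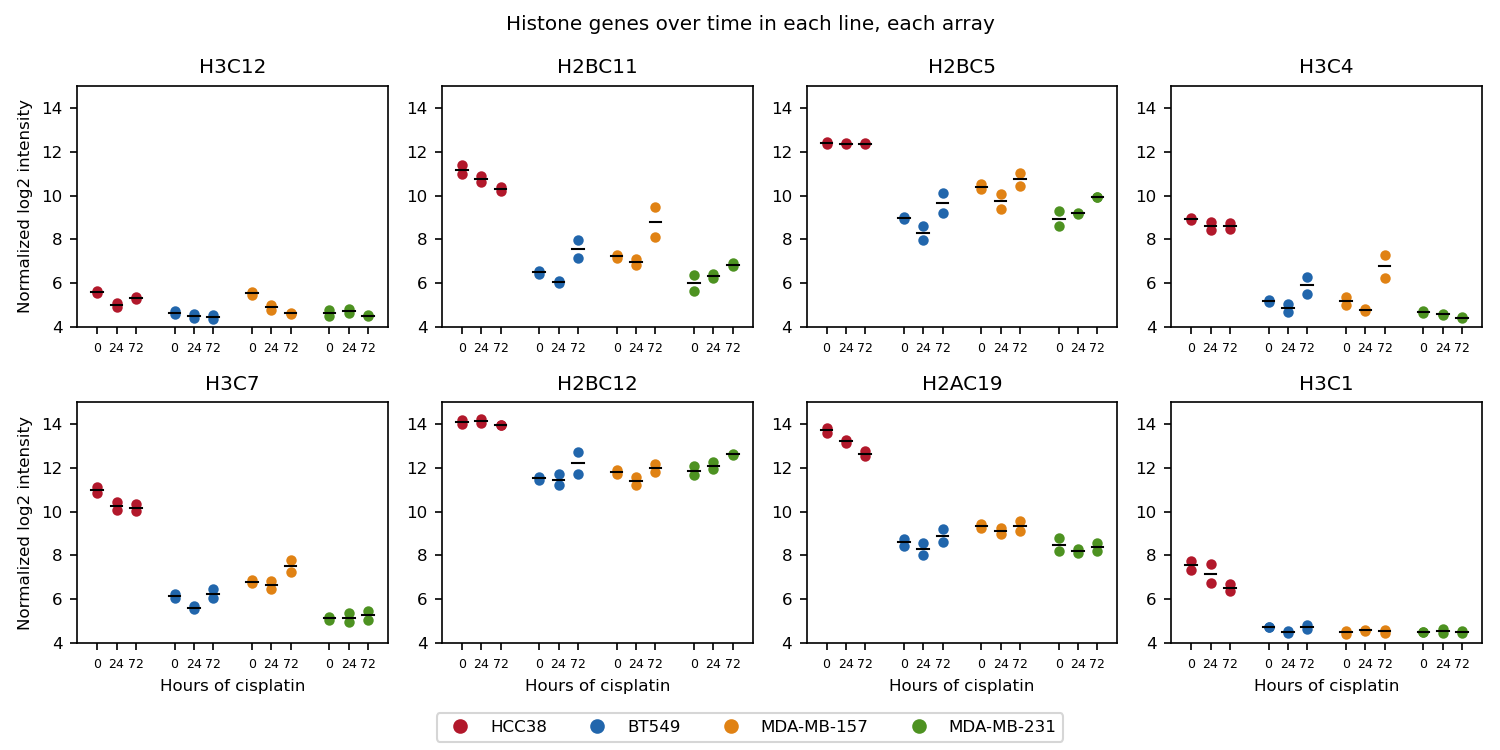
Log2 intensity (vertical axis) on each array (dots) and group means (bars) of H3C12, H2BC11, H2BC5, H3C4, H3C7, H2BC12, H2AC19 and H3C1 in the 4 lines at 0, 24 and 72 h. H3C12 in MDA-MB-157 is 5.48 and 5.61 at 0 h and 4.59 and 4.65 at 72 h, and the 72 h dots of H2BC11 and H3C4 in BT549 and MDA-MB-157 lie above the 24 h ones.

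Genes that switch on and process histone mRNA were called about as often as other genes in HCC38. Of 20 listed transcription and processing genes, 18 were measured, and at 0 h 3 were called higher in HCC38 (SYMPK, a scaffold of the cleavage complex, 0.77; CSTF2T 1.06; NCBP1 of the cap-binding complex 0.42) and 4 lower (LSM10, a U7 snRNP subunit, -1.30; the endonuclease CPSF3 -0.61; ZNF473 -0.48; NCBP2 -0.35), against 22% and 21.5% of all genes, with a median of -0.13. The stem-loop binding gene SLBP differed by 0.22 (adjusted p 0.347) and the cluster activator NPAT by -0.03 (adjusted p 0.937). Of 9 listed decay genes, LSM1 (0.81), the exonuclease XRN1 (0.97) and the checkpoint kinase ATR (0.65) were higher and TUT4 (-0.55) and EXOSC10 (-0.98) lower, against the same shares of all genes.

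S-phase genes were likewise near the background in HCC38. Of 21 listed, 20 were measured, with 5 higher, among them the replication clamp PCNA (1.03, adjusted p 0.000317) and thymidine kinase TK1 (0.67), and 5 lower, among them the polymerase subunit POLA1 (-1.55, adjusted p 6.02e-06) and RRM2 (-1.15), against 22% and 21.5% of all genes. The median was -0.06, against 2.36 for the 55 histone genes and -0.04 for all genes. Over time, 19 of the 20 were above 0 at 24 h in the average of the lines (median 0.31) and 18 at 72 h (median 0.22), and TK1 was the sole call (0.75 at 72 h, adjusted p 0.0180, against 0.507% of all genes higher). In the same averages 49 and 37 of the 55 histone genes were below 0. What part the share of cells in S phase has in either was not tested.

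Replacement histones were measured for 10 of 11 listed genes. At 0 h H2AJ (2.73), MACROH2A2 (2.78), H2AX (1.02), H3-3A (0.76) and MACROH2A1 (0.52) were called higher in HCC38 and H2AZ2 (-1.67) and H3-3B (-0.71) lower, against 22% and 21.5% of all genes, with a median of 0.31. Over time H1-10, a linker histone outside the clusters, fell by 0.50 at 72 h against 0 h (adjusted p 0.0320) and by 0.55 against 24 h (adjusted p 0.0486) in the average of the lines, and MIF4GD, which binds SLBP, fell by 0.54 at 72 h (adjusted p 0.0346). Over all genes 0.702% were lower at 72 h against 0 h and 0.0405% against 24 h.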

How the data were processed

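RNA of 4 cell lines received a biotin label with an Ambion MessageAmp kit, per the labels' protocols, and measured on 24 single-colour Illumina bead arrays on 2 slides, each with 1 array of every group. Intensity per probe was deposited without normalization (73.8 to 31863 over all probes), and the program that summarised them is not given in the sources used here. A detection p-value stands beside each deposited intensity, per the file headers, and how it was computed is not given either. The authors also deposited a log2 table whose identifiers did not correspond to the intensities (33 of 47322 probes kept their own). It was matched by value (47319 probes) and used only as an alternative, named as the authors' deposited log2 table. There were 0 per-sample columns of other series.

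Platform symbols were brought up to date through Entrez identifiers in RefSeq (GRCh38.p14). A single symbol was found for 30112 probes and several for 8, and only probes with a single symbol were used. Intensities were background-corrected in limma 3.58.1 (R 4.3.3) with normexp, negative controls inferred from the detection p-values and an offset of 16, then quantile-normalized and taken to log2. The detection filter (p under 0.05, at least 2 arrays) was applied per probe, and the probe with the highest mean stood for its gene, which left 14807 genes. The limma model held 1 mean for each of the 12 groups over all 24 arrays (12 residual and 6.87 prior degrees of freedom). A call needed a p, Benjamini-Hochberg adjusted over all 14807 genes, under 0.05. Averages weighted the 4 lines equally, and p-values measure the spread between replicates of these cultures.

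The genes, the lists and the comparison of 1 line with the others were chosen with earlier results of these data known. Each line was compared with the other 3, and lines that did not detect a gene were raised to the lowest detected signal, after the values had been seen. Every histone gene that met the rule is named and placed by its range, with values on each array for the genes called in a comparison of times and for the brightest gene of each class. The rule as written also asked for array values of every gene called by the joint test of lines, which was 50 of 55, and these are given as ranges in the text and on each array in the heat map. Promoters were read from RefSeq, and identities came from global alignment in Biopython 1.88. The fit was tested on simulated data of the same layout. Alternatives were the scaling, the background, the filter, the probe rule, blocks, weights and each array left out.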

Additional observations from a re-analysis of the deposited data

How the results depend on the processing

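The number of histone genes called higher in HCC38 than in the other lines at 0 h (50) was 43 in the authors' deposited log2 table, 47 with detection on at least 6 arrays, 51 with no filter and 50 under the other alternatives that kept all arrays, and 47 to 50 with 1 array left out. Of the 50 genes, 42 were called under each alternative that kept all arrays and 45 with each array left out in turn. The median difference of the 55 genes, 2.36, was 1.13 without background correction, 1.29 in the authors' deposited log2 table, 1.56 with an offset of 50 and 2.90 with detection on at least 6 arrays (50 genes), and 2.23 to 2.59 with 1 array left out. Raising or omitting the background correction raises the floor of dim probes by construction. The joint test of lines at 0 h called 49 to 51 with 1 array left out.

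The time counts were small and moved more, and the cause was not tested. For the average at 72 h against 0 h (1 call) the counts were 0 with median scaling, 2 without background correction, 2 with an offset of 50, 2 with array quality weights, 0 without BT549 and 0 without MDA-MB-157, and 0 to 5 with 1 array left out. For 72 h against 24 h (3 calls) they were 0 with median scaling, 0 in the authors' deposited log2 table, 1 without background correction, 1 with an offset of 50, 0 with no filter, 1 with slide as a block, 0 without HCC38, BT549 or MDA-MB-157, 1 without MDA-MB-231, and 0 to 6 with 1 array left out. For HCC38 at 72 h (0 calls) they were 1 in the authors' deposited log2 table, 6 without background correction and 4 with an offset of 50, and 0 to 1 with 1 array left out. For MDA-MB-157 at 72 h (3 calls) they were 0 with median scaling, 0 in the authors' deposited log2 table, 0 without background correction, 1 with no filter and 5 with array weights, and 0 to 3 with 1 array left out. The test of whether changes at 72 h differ called 1 without background correction and 0 to 4 with 1 array left out. Counts with 1 array left out were 0 to 2 for BT549 at 72 h, 0 to 3 for MDA-MB-231 at 24 h and 0 to 4 at 72 h, and 0 at 24 h for the average and for the test of differing changes. Calls over all genes moved too. For HCC38 at 72 h they were 12 as reported, 67 without background correction and 72 with an offset of 50. The average at 72 h against 0 h had 179, 352 and 338 in the same order, and 72 h against 24 h had 22, 46 and 48. MDA-MB-157 at 72 h had 12 as reported and 67 with array weights.

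Median changes in HCC38 were -0.67 at 24 h and -0.73 at 72 h with median scaling, where the median of all genes was -0.28 and -0.22. In BT549 they were 0.15 at 24 h and 0.27 at 72 h in the authors' deposited log2 table. With 1 array left out the medians at 24 h ran from -0.61 to -0.05 in HCC38, -0.20 to -0.14 in BT549, -0.25 to -0.16 in MDA-MB-157, -0.04 to 0.03 in MDA-MB-231 and -0.23 to -0.11 in the average. At 72 h they ran from -0.55 to -0.36, -0.08 to 0.11, -0.09 to 0.09, 0.01 to 0.06 and -0.13 to -0.05 in the same order, and from -0.02 to 0.12 for 72 h against 24 h.

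Same-numbered replicates of a line deviated together in part (correlations -0.049 to 0.50), and nothing in the labels says that a number marks a shared day, so the numbers were not taken to pair the arrays. With the replicate block the calls were 4 for the average at 72 h, 3 for HCC38 at 72 h and 2 for the differing changes at 72 h. Over all genes the calls rose with it from 179 to 504 for the average at 72 h against 0 h. For HCC38 at 72 h they rose from 12 to 115. Dim probes limit what 2 arrays per group can show, since 14 of the 69 genes with a probe were left out by the detection rule.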
